A study of Gallus gallus with 21 samples.

Results

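The chicken genome holds many microchromosomes. The mRNAs described here are those that the mRNA table places on chromosomes 21 to 28 and 30 to 33. These chromosomes are called the smallest microchromosomes here. Chromosome 16 is shorter than chromosomes 21 to 28 in the authors' list of lengths, and it is not among them. The members were chosen by position alone, as every row with such a chromosome, and they number 1645 of the 14558 mRNAs in the table. They were set against the 5962 mRNAs of chromosomes 1 to 5, the largest chromosomes apart from Z. RNA was taken from the cerebrum of female Tibetan chickens, with 1 bird per library, and values of 18 of the 21 libraries were analysed. These were embryos of day 12 (E12, 3 libraries), day 16 (E16, 3 libraries) and day 20 (E20, 2 libraries) from incubated eggs, hens of 100 days (D100, 3 libraries) from a farm in Ya'an, and hens of 1 year (Y1, 3 libraries), 3 years (Y3, 2 libraries) and 5 years (Y5, 2 libraries) from Lhasa. Hens of D300 were not analysed here, because the columns left over carry no stage in their name. These places are those of the sample labels. The place changes with age in this design, so the 2 cannot be told apart in any comparison across these groups.

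Microchromosomes are a feature of bird genomes. They are short, dense in genes and rich in G and C, their introns are short, and they recombine often in meiosis. The table lists Ensembl identifiers, and 0 of them had a symbol in the reference at hand. Lists of neuronal, glial and blood genes could therefore not be applied, and the tissue was not checked against its markers. The mRNAs other than 4 are described by their chromosome alone, and no sequence is shown.

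The authors deposited each level on a log2 scale after adding 1 to the FPKM, written log2(FPKM+1). FPKM relates the fragments of a transcript to its length and to the depth of the library. On this scale the change of a weakly expressed mRNA is understated. The values hold no read counts, so the depth behind a value and its counting error are unknown. In bulk tissue, fewer cells of a type and less RNA per cell cannot be told apart. A library of D100 (replicate 3) stood apart, since mitochondrial mRNAs held 28.8% of its summed FPKM, against 0.43% to 5.62% in the other 17 libraries.

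The members were spread unevenly over their chromosomes. Chromosome 28 had 265 of them, chromosome 21 had 228, chromosome 23 had 222, chromosome 27 had 215, chromosome 26 had 206, chromosome 24 had 161, chromosome 25 had 146 and chromosome 22 had 110. Only 76 lay on chromosome 33, 12 on chromosome 32, 4 on chromosome 30 and 0 on chromosome 31. The last 3 chromosomes were thus hardly seen in the table, and values for them rest on a few mRNAs.

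The mRNAs of the smallest microchromosomes were expressed at nearly the level of those of the large chromosomes. The median over members of the mean log2(FPKM+1) was 3.49, against 3.65 on chromosomes 1 to 5. It was 3.60 on chromosomes 6 to 10 and 3.62 on chromosomes 11 to 20 without chromosome 16. The middle 50% of the members lay between 2.26 and 4.79, against 2.41 and 4.72 on chromosomes 1 to 5. The mean levels were closer, at 3.60 for the members and 3.64 for chromosomes 1 to 5. The members therefore differed in the shape of their distribution, with a lower middle and a fuller top.

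Within a library the median of the members was usually the lower of the 2. The difference, members minus chromosomes 1 to 5, averaged -0.12 ± 0.09 (SD, n = 18 libraries) and was below 0 in 16 of the 18 libraries. It was above 0 in D100 replicate 2 (0.02) and in Y1 replicate 2 (0.04). The largest gap was in E12 replicate 3 (-0.26), and the gaps of both Y5 libraries were -0.24. The mean difference of a stage was -0.20 (E12), -0.08 (E16), -0.12 (E20), -0.08 (D100), -0.04 (Y1), -0.17 (Y3) and -0.24 (Y5). Libraries of the same stage differed by up to 0.18 in this measure (D100), which is more than any step between neighbouring stage means. Leaving out any single library, D100 replicate 3 included, kept the mean difference over libraries between -0.13 and -0.12.

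**Figure D1:**
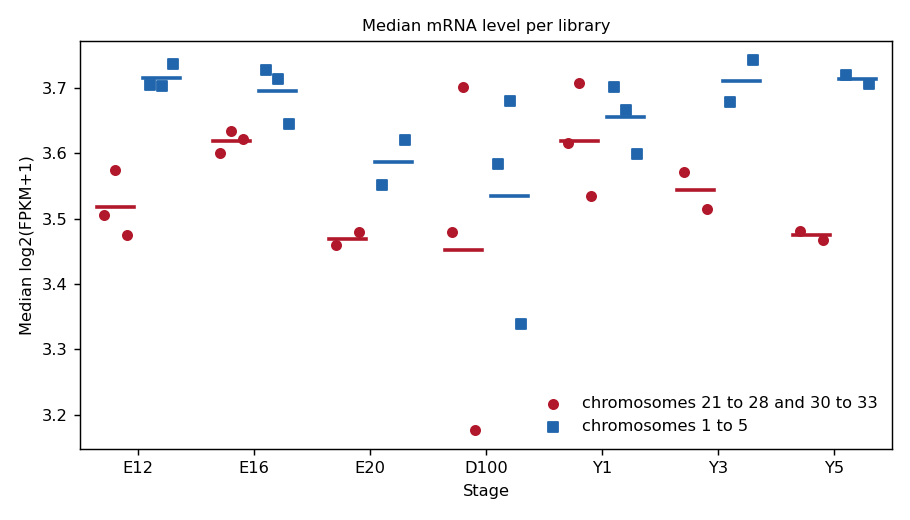
Median log2(FPKM+1) of each library (points) and mean of each stage (bars), over the mRNAs of chromosomes 21 to 28 and 30 to 33 (circles) and of chromosomes 1 to 5 (squares). The circles lie below the squares of the same library in 16 of 18 libraries, and D100 replicate 3 is the lowest of both, at 3.18 and 3.34.

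Strongly expressed mRNAs were more frequent among the members. A mean level of at least 8 was reached by 35 members (2.13%), against 72 mRNAs of chromosomes 1 to 5 (1.21%). At a mean of at least 6 the shares were 8.33% and 7.72%. At the low end, 100 members (6.08%) had a mean below 1, against 6.21% on chromosomes 1 to 5. The share between 1 and 3 was higher among members (33.3% against 29.1%), and the share between 3 and 5 was lower (39.8% against 44.8%).

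Single chromosomes differed more among themselves than the whole set differed from chromosomes 1 to 5. Of the chromosomes with at least 76 members, chromosome 22 had the highest median level (3.90), followed by chromosome 28 (3.75) and chromosome 21 (3.53). Chromosome 24 had the lowest (3.22), next to chromosome 33 (3.27) and chromosome 27 (3.32). These chromosomes hold 76 to 265 mRNAs each, against 1645 in the whole set, so the differences are not directly comparable. Medians of single chromosomes among 11 to 20 without 16 ran from 3.35 (chromosome 11) to 3.83 (chromosome 15). The spread of these medians was not tested. The 12 mRNAs of chromosome 32 had a median of 4.66 and the 4 of chromosome 30 a median of 5.49. On chromosome 33, 4 of 76 mRNAs (5.26%) had a mean of at least 8, against 0.90% on chromosome 23.

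A few mRNAs dominated the output of these chromosomes. The 10 most abundant members held 25.8% of the members' summed FPKM, and the 100 most abundant held 59.0%. The most abundant lay on chromosome 24, with a mean log2(FPKM+1) of 11.3 and single libraries between 10.9 and 11.7. The next were 2 mRNAs of chromosome 33 (means of 11.2 and 10.9), 1 of chromosome 23 (10.9), 1 of chromosome 22 (10.6), 1 of chromosome 27 (10.4) and 1 of chromosome 28 (10.02). They were followed by 1 of chromosome 26 (9.61), another of chromosome 24 (9.46) and another of chromosome 26 (9.38).

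Expression was broad. An FPKM above 1 in all 18 libraries was found for 1265 members (76.9%), against 78.7% on chromosomes 1 to 5. A single library held between 1457 members above that level (88.6%, D100 replicate 3) and 1548 (94.1%, Y1 replicate 2). In adult hens 93.0% ± 0.82 of the members were above it (SD, n = 7), and in embryos 90.7% ± 0.61 (SD, n = 8). On chromosomes 1 to 5 these shares were 92.7% ± 1.03 and 91.7% ± 0.82. Listed at 0 in at least 1 library were 146 members (8.88%), against 8.82% on chromosomes 1 to 5, and 12 members (0.73%) never passed an FPKM of 1.

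Shannon entropy over the stage means of FPKM measures how evenly an mRNA is used across the 7 stages, with a maximum of 2.807 bits where all stages are equal. The median was 2.738 bits for the members and 2.741 bits on chromosomes 1 to 5. Only 20 members (1.22%) had less than 2 bits, against 1.19% on chromosomes 1 to 5. Of these 20, 7 were highest at E16, 5 at Y5, 3 at E12, 3 at D100, and 1 each at Y1 and Y3. E16 and Y5 also led among the 71 such mRNAs of chromosomes 1 to 5, with 25 and 23. The median entropy of single chromosomes with at least 76 members was between 2.707 bits (chromosome 33) and 2.748 bits (chromosomes 22 and 23).

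The amount of change over life was alike as well. The range between the highest and the lowest of the 7 stage means had a median of 1.13 on the log2 scale for the members and 1.12 on chromosomes 1 to 5. It was at least 2 for 218 members (13.3%), against 12.9% on chromosomes 1 to 5. The SD between birds of the same stage had a median of 0.33 among members, against 0.31. On chromosome 33 the median range was highest (1.31), and on chromosome 23 it was 1.03. The difference between the 2 medians stayed between -0.02 and 0.02 when any single library was left out.

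The stage at which an mRNA was highest was spread over all of life. Among members E16 was the most frequent highest stage (334 mRNAs, 20.3%, against 17.0% on chromosomes 1 to 5), followed by E12 (295 mRNAs, 17.9%, against 21.3%). Y1 was the highest stage of 218 members (13.3%, against 8.62%) and Y5 of 205 (12.5%, against 17.8%). D100 was the least frequent highest stage in both sets (8.02% against 7.93%). Y5 was the lowest stage of 307 members (18.7%, against 13.4%) and E20 of 303 (18.4%, against 16.9%). D100 was the lowest stage of 289 members (17.6%) and E12 of 284 (17.3%). On chromosomes 1 to 5, D100 was the lowest stage of 1310 of the 5962 mRNAs and E12 of 778.

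Whole libraries were also shifted. For each library the deviation of every mRNA from its own mean was taken, and the median deviation of chromosomes 1 to 5 was subtracted from that of the members. This offset was highest in D100 replicate 2 (0.12), Y1 replicate 2 (0.12) and E16 replicate 3 (0.12). It was lowest in E12 replicate 3 (-0.13), Y5 replicate a (-0.12) and Y3 replicate b (-0.08). All 3 libraries of E12 and both of Y5 were below 0, all 3 of Y1 and both of E20 were above 0, and E16, D100 and Y3 had libraries on both sides. The SD of single libraries within a stage was 0.059, and the SD of the stage means was 0.065. A mean over libraries varies less than a single library, so these SDs are not directly comparable. The difference between stages was not tested.

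The offset was not even over the microchromosomes. On chromosome 33 it ran from -0.35 (E12 replicate 3) to 0.27 (D100 replicate 2), and its stage means were -0.24 (E12), 0.13 (E16), 0.04 (E20), 0.10 (D100), 0.09 (Y1), -0.02 (Y3) and -0.26 (Y5). Chromosome 25 (-0.28 to 0.21), chromosome 27 (-0.24 to 0.19), chromosome 28 (-0.20 to 0.22) and chromosome 26 (-0.23 to 0.17) had wide ranges too. Chromosomes 24 (-0.15 to 0.14), 23 (-0.14 to 0.14), 22 (-0.12 to 0.11) and 21 (-0.09 to 0.09) had narrower ones. Single chromosomes among 1 to 5 stayed between -0.06 and 0.05. They are themselves the reference, so their offsets lie near 0 by the way the measure is built. Each also holds 861 to 1848 mRNAs, against 76 to 265 on the microchromosomes named here, so the ranges are not directly comparable. Chromosomes 6 to 10 together ran from -0.05 to 0.03, chromosomes 11 to 20 without 16 from -0.06 to 0.07, and mRNAs on unplaced scaffolds or a linkage group from -0.25 (Y5 replicate b) to 0.22 (E16 replicate 3). The part of this offset in the shares of highest and lowest stages and in the counts below was not tested.

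**Figure D2:**
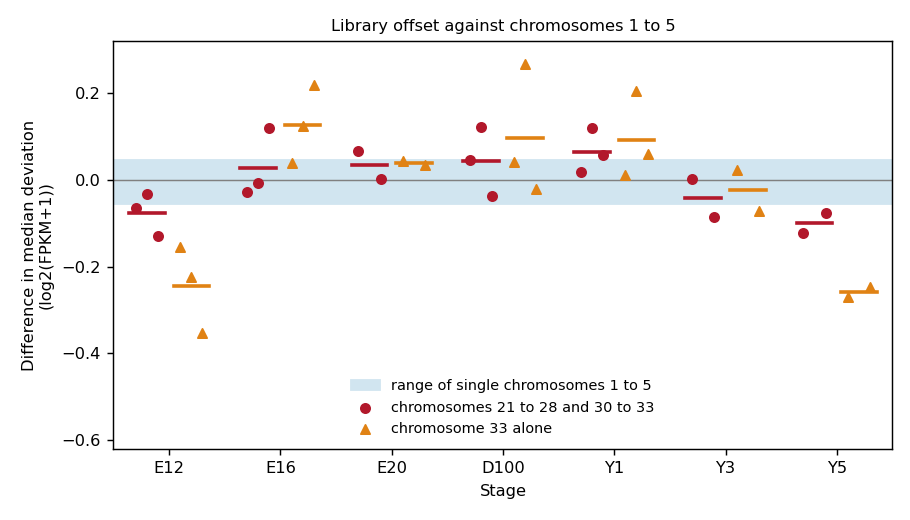
Median deviation of mRNAs from their own mean over the 18 libraries, minus the same median over chromosomes 1 to 5, on the log2(FPKM+1) scale, by stage. Circles show the microchromosomes together and triangles chromosome 33 alone, with bars for stage means, and the band holds all libraries of the single chromosomes 1 to 5 (-0.06 to 0.05). The chromosomes of the band are themselves the reference, so they lie near 0 by the way the measure is built. Chromosome 33 lies between -0.35 and -0.15 in the 3 libraries of E12, and at -0.27 and -0.25 in those of Y5.

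Stages were compared with limma in a single fit of the 18 libraries. An mRNA was called where its fold change was at least 2 or at most 0.5 and its p, after Benjamini-Hochberg adjustment over all 14558 mRNAs, was at most 0.05. Changes are the later stage minus the earlier, or adult hens minus embryos. In at least 1 of the 7 comparisons 439 members were called (26.7%, against 25.5% on chromosomes 1 to 5), and 1206 members were called in none.

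Between adult hens (Y1, Y3 and Y5) and embryos (E12, E16 and E20), 125 members rose (7.60%) and 94 fell (5.71%). Over all mRNAs tested, 7.09 percent rose and 5.33 percent fell, and on chromosomes 1 to 5 the shares were 7.40% and 5.94%. The members were thus close to the background in both directions. The median rise of those called was 1.37 and the median fall -1.33 on the log2 scale. Over all members the median change was -0.04, against -0.02 on chromosomes 1 to 5. In 65 of the 125 that rose and 45 of the 94 that fell, the 7 adult libraries and the 8 embryonic libraries did not overlap. This held for 563 of the 1032 mRNAs that rose in the whole table, and for 404 of the 776 that fell. The count of called members stayed between 203 and 243 when any single library was left out.

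The microchromosomes differed in direction here. On chromosome 26, 20 mRNAs rose and 4 fell, and on chromosome 24, 17 rose and 5 fell. On chromosome 28, 14 rose and 25 fell. Chromosome 21 had 22 that rose and 15 that fell, chromosome 27 had 16 and 12, chromosome 23 had 13 and 11, and chromosome 25 had 13 and 10. Chromosome 33 had 6 that rose and 7 that fell, and chromosome 22 had 4 and 5. Of the 16 mRNAs of chromosomes 30 and 32, 0 were called by limma, and 0 also at an unadjusted p of at most 0.05. As shares of their own mRNAs, the risen ran from 3.64% (chromosome 22) to 10.6% (chromosome 24) and the fallen from 1.94% (chromosome 26) to 9.43% (chromosome 28), over chromosomes with at least 76 members. Among chromosomes 1 to 5 the shares were between 6.39% and 8.03% for the risen and between 4.76% and 6.93% for the fallen. Each of these holds 861 to 1848 mRNAs, against 76 to 265 on the microchromosomes, so the ranges are not directly comparable. Chromosomes 11 to 20 without 16 hold 280 to 370 mRNAs each. Their risen shares ran from 5.0% (chromosome 12) to 10.4% (chromosome 13). Their fallen shares ran from 3.07% (chromosome 19) to 5.92% (chromosome 18). The spread between single chromosomes was not tested.

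Abundant mRNAs were called as lower in adult hens at a like share in both sets. Of the 35 members with a mean level of at least 8, 0 rose and 9 fell (25.7%). For 29 of them the fitted change was below 0, and the median was -0.62. By limma at an unadjusted p of at most 0.05 and the same fold change, also 0 rose and 9 fell. Of the 72 such mRNAs of chromosomes 1 to 5, 5 rose and 19 fell (26.4%), 49 had a change below 0 and the median was -0.47. The difference between the 2 sets was not tested. By level, 9.87% of the members with a mean between 1 and 3 rose and 6.03% fell, while of the 61 with a mean of at least 7, 3 rose and 11 fell, against 17 and 33 of 179 on chromosomes 1 to 5.

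Of the 10 most abundant, 4 were called as lower in adult hens. The mRNAs of chromosomes 22 and 27, both of chromosome 26 and the less abundant of chromosome 24 had changes between -0.98 and -0.62. Their limma adjusted p was between 0.000133 and 0.0098, and they were not called because the change was short of 2-fold. The mRNA of chromosome 23 had stage means of 12.2 (E12), 11.8 (E16), 11.2 (E20), 10.6 (D100), 10.05 (Y1), 9.93 (Y3) and 10.1 (Y5), and fell by 1.71 in adult hens against embryos (SE 0.16, limma adjusted p = 8.75e-07). The more variable of the 2 mRNAs of chromosome 33 had a mean of 12.3 at E12 and of 9.69 at Y5, and fell by 1.56 (SE 0.21, limma adjusted p = 3.02e-05). The mRNA of chromosome 28 was highest at E16 (10.98) and fell by 1.32 (SE 0.18, limma adjusted p = 3.7e-05). The other of chromosome 33 fell by 1.02 (SE 0.19, limma adjusted p = 0.000529), although its mean at Y5 was 11.2, above Y1 and Y3 with 10.44 and 10.46. The most abundant of all, on chromosome 24, had means between 10.96 and 11.54 at every stage and a change of 0.08 (SE 0.18, limma adjusted p = 0.733).

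The share of the microchromosomes in the summed FPKM depended on what the sum held. Of the whole sum, the members held 7.68% to 10.1% in the 7 adult libraries and 8.46% to 12.3% in the 8 embryonic libraries, and the 2 groups overlapped. Leaving out mitochondrial mRNAs and the single most abundant mRNA of the table (on chromosome 3), the members held 11.99% to 14.02% of the summed FPKM in the 7 adult libraries, with a median of 13.1%. In the 8 embryonic libraries they held 14.4% to 16.8%, with a median of 15.8%, and the 2 groups did not overlap. The means per stage were 16.3% (E12), 15.9% (E16), 14.6% (E20), 14.5% (D100), 13.3% (Y1), 13.2% (Y3) and 12.3% (Y5). The share of chromosomes 1 to 5 averaged 47.9% ± 2.57 in adult hens (SD, n = 7) and 45.0% ± 0.99 in embryos (SD, n = 8), and there the libraries overlapped.

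Most of that gap lay in a few mRNAs. The 10 most abundant members held 2.61% ± 0.16 of the summed FPKM in adult hens (SD, n = 7) and 4.83% ± 0.74 in embryos (SD, n = 8), without overlap. All other members held 10.4% ± 0.58 in adult hens and 10.9% ± 0.29 in embryos, and there the libraries overlapped. By chromosome, chromosome 33 held 1.24% ± 0.11 in adult hens and 2.23% ± 0.45 in embryos, and chromosome 23 held 1.33% ± 0.06 and 2.06% ± 0.23, both without overlap. Chromosome 28 (1.945% ± 0.15 and 2.47% ± 0.24) and chromosome 30 (0.09% ± 0.01 and 0.13% ± 0.01) did not overlap either. On chromosome 26 the highest adult library had 1.305% and the lowest embryonic library 1.307%. Chromosome 24 went the other way, with 1.96% ± 0.17 in adult hens and 1.69% ± 0.15 in embryos, and there the libraries overlapped. Its highest stage was D100 with 2.31% ± 0.04 (SD, n = 3). A share falls where other mRNAs grow, so these values do not by themselves show less RNA from a chromosome.

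**Figure D3:**
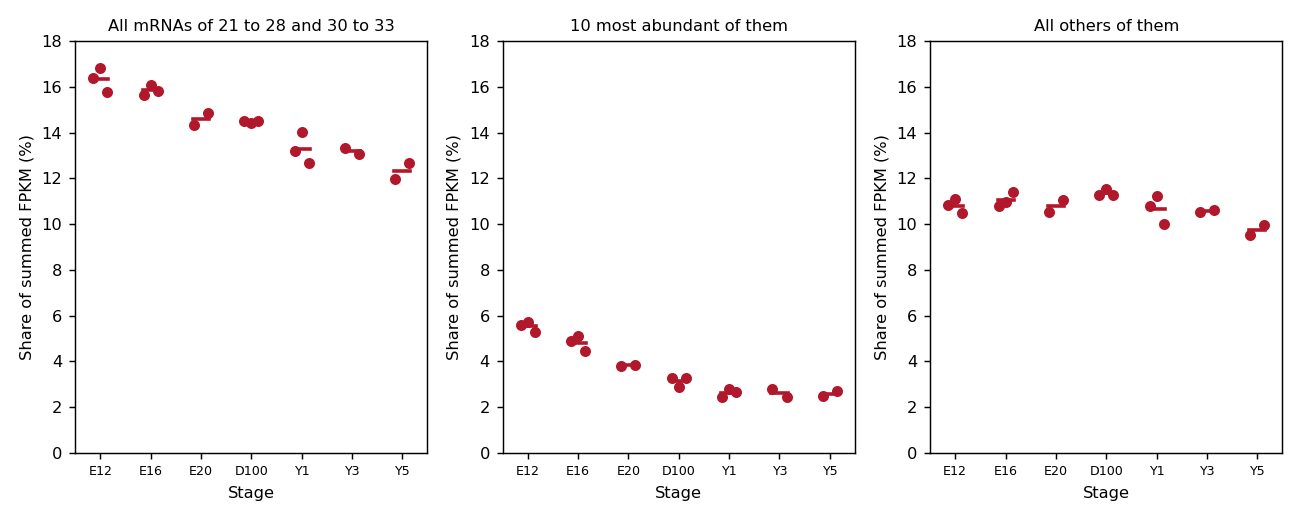
Share of the summed FPKM, in percent and without mitochondrial mRNAs and the most abundant mRNA of the table, held by the mRNAs of chromosomes 21 to 28 and 30 to 33 (left), by the 10 most abundant of them (middle) and by the others (right). Points are libraries and bars stage means, and the left panel runs between 16.8% (E12 replicate 2) and 12.0% (Y5 replicate a), while the right panel stays between 9.53% and 11.6%.

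Between E16 and E12, 29 members rose (1.76%) and 14 fell (0.85%). Over all mRNAs 1.05 percent rose and 1.43 percent fell, and on chromosomes 1 to 5 the shares were 0.91% and 1.73%. Rises thus made up 67.4% of the calls among members and 34.4% on chromosomes 1 to 5. The median change was 0.09 for members and -0.03 for chromosomes 1 to 5, and it was 0.30 on chromosome 33, 0.17 on chromosome 25 and 0.16 on chromosome 27. Chromosome 26 had 7 rises, and chromosomes 27 and 28 had 6 rises and 1 fall each. The largest rise, on chromosome 27, had 7.66, 7.69 and 5.12 in the E16 libraries, against 3.78, 4.81 and 3.97 in the E12 libraries. The libraries did not overlap, and the change was 2.64 (SE 0.71, limma adjusted p = 0.0482).

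The counts between E16 and E12 rested on single libraries. Without E12 replicate 1, 3 members rose and 4 fell. Without E12 replicate 2, 7 rose and 6 fell, and without E12 replicate 3, 16 rose and 9 fell. Without E16 replicate 1, 13 rose and 9 fell, and without E16 replicate 2, 5 rose and 4 fell. Without E16 replicate 3, whose offset was 0.12 against -0.03 and -0.01 in the other libraries of E16, 50 rose and 43 fell. In each of these 6 fits rises made up a smaller share of the calls than with all libraries. On chromosomes 1 to 5 falls outnumbered rises in all 6. In the order given, the rises and falls there were 9 and 32, 17 and 42, and 22 and 73 without a library of E12. Without a library of E16 they were 19 and 53, 9 and 29, and 188 and 247. Among members, rises were 70.2% of the calls with median-ratio scaling, 73.2% in a fit of these stages alone and 64.7% at an unadjusted p of at most 0.05.

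Between E20 and E16, 65 members rose (3.95%) and 112 fell (6.81%). Over all mRNAs 2.9 percent rose and 5.32 percent fell, and on chromosomes 1 to 5 the shares were 2.83% and 5.28%. The falls were most numerous on chromosome 27 (20), chromosome 28 (18), chromosome 23 (15) and chromosome 21 (14), and chromosome 33 had 9 falls and 1 rise. The rises were most numerous on chromosomes 23 and 27 (12 each) and 28 (11). The median change was -0.07 for members and -0.08 for chromosomes 1 to 5. With median-ratio scaling the median of the members was 0.002, and 80 members rose and 93 fell. Rises were then 46.2% of the calls in place of 36.7%. All mRNAs then had 546 rises and 640 falls, in place of 422 and 775. The count of called members fell to 57 (16 rises and 41 falls) without E20 replicate 1. In a fit of the 2 stages alone it was 26, fewer than the 56 of such a fit for E16 and E12, so the order of these 2 comparisons by number of calls turned round.

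Examples of both directions were large. The largest rise, of an mRNA on chromosome 23, had 5.09 and 3.68 at E20, against 0.32, 0.00 and 2.71 at E16, a change of 3.37 (SE 0.66, limma adjusted p = 0.00415). An mRNA of chromosome 25 had 7.29 and 6.72 at E20, against 3.58, 3.93 and 4.79 at E16, and it stayed between 4.92 and 7.47 in all later libraries. The largest fall, on chromosome 27, had 1.71 and 2.54 at E20, against 5.98, 6.02 and 4.17 at E16, and it did not exceed 1.27 in any library of Y1, Y3 and Y5.

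Between D100 and E20, 46 members rose (2.80%) and 37 fell (2.25%). Over all mRNAs 2.28 percent rose and 3.1 percent fell, and on chromosomes 1 to 5 the shares were 2.38% and 3.22%. Chromosome 21 had 13 rises and 4 falls and chromosome 33 had 8 and 2, while chromosome 27 had 4 rises and 6 falls. The largest rise, on chromosome 26, had 3.48, 4.58 and 2.30 at D100, against 0.56 and 0.18 at E20, a change of 3.08 (SE 0.48, limma adjusted p = 0.00236). The largest fall, on chromosome 28, had 1.32, 1.04 and 2.05 at D100, against 4.28 and 4.47 at E20, a change of -2.90 (SE 0.29, limma adjusted p = 0.000139). Without E20 replicate 1 the count was 25, and without E20 replicate 2 it was 45. Without D100 replicate 3, the library rich in mitochondrial mRNA, 59 rose and 25 fell, and without D100 replicate 2, 30 rose and 65 fell. With median-ratio scaling of the libraries, rises were 66.3% of the calls in place of 55.4%. All mRNAs then had 476 rises and 349 falls, in place of 332 and 451. In a limma fit of the 2 stages alone all calls were lost (0 members), and at an unadjusted p of at most 0.05 that fit gave 63 rises and 66 falls.

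Between Y1 and D100, 60 members rose (3.65%) and 30 fell (1.82%). Over all mRNAs 3.35 percent rose and 1.77 percent fell, and on chromosomes 1 to 5 the shares were 3.22% and 2.25%. Rises were most numerous on chromosomes 21 and 26 (11 each), and falls on chromosome 24 (9) and chromosome 21 (7). The median change was 0.17 for members, 0.13 for chromosomes 1 to 5 and 0.14 for all mRNAs, so the members moved upward together with the whole table. With median-ratio scaling the median of all mRNAs was 0.01 and that of the members 0.04, and 50 members rose and 48 fell, so that rises were 51.0% of the calls in place of 66.7%. Without D100 replicate 3, 50 rose and 58 fell, and without D100 replicate 2, 118 rose and 22 fell. In these fits, in turn, 392 and 826 of all mRNAs rose, and 511 and 235 fell. The count was 26 without D100 replicate 1, 50 without Y1 replicate 1, 43 without Y1 replicate 2 and 41 without Y1 replicate 3. In a fit of the 2 stages alone 1 member rose and 5 fell.

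Few members were called between adult stages. Between Y3 and Y1, 1 member rose and 0 fell, against a background of 0.0206 percent that rose and 0.0275 percent that fell. At an unadjusted p of at most 0.05 and the same fold change, 10 members rose and 30 fell. At that limit 158 of all 14558 mRNAs rose and 194 fell. The mRNA that rose, on chromosome 28, had 6.51 and 6.55 at Y3, against 4.88, 5.11 and 4.46 at Y1, a change of 1.71 (SE 0.26, limma adjusted p = 0.0496), and it had 5.11 and 5.23 at Y5. It was not called without Y1 replicate 1, Y1 replicate 2, Y1 replicate 3 or Y3 replicate b in turn, where the counts of members were 0, 0, 0 and 2 falls. A limma fit of the 2 stages alone called 0 members, and 10 rises and 34 falls at an unadjusted p of at most 0.05.

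Between Y5 and Y3, 5 members rose (0.30%) and 3 fell (0.18%). Over all mRNAs 0.522 percent rose and 0.206 percent fell, and on chromosomes 1 to 5 the shares were 0.62% and 0.20%. The rises lay on chromosome 26 (3), chromosome 21 (1) and chromosome 25 (1), and the falls on chromosomes 26, 28 and 33 (1 each). An mRNA of chromosome 26 had 7.41 and 7.48 at Y5, against 4.35 and 5.63 at Y3, a change of 2.46 (SE 0.36, limma adjusted p = 0.00665). The fall on chromosome 33 had 4.95 and 5.04 at Y5, against 6.34 and 6.38 at Y3. The count was 19 without Y3 replicate b and 1 without Y3 replicate a, Y5 replicate a or Y5 replicate b in turn, and 1 in a fit of the 2 stages alone.

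**Figure D4:**
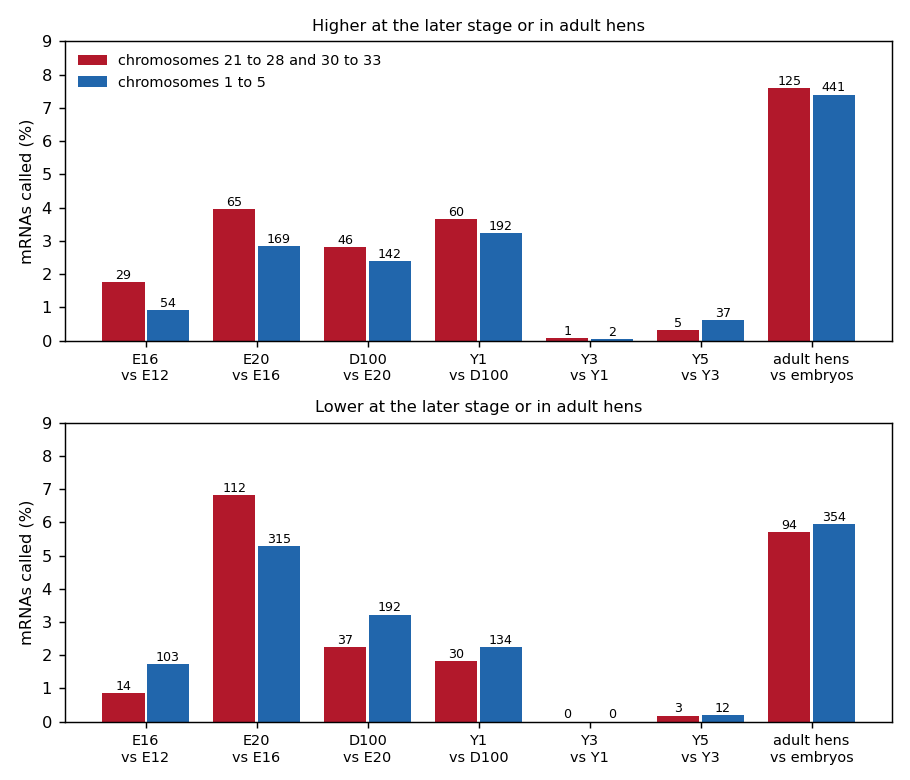
Percent of mRNAs called as higher (top) or lower (bottom) at the later stage or in adult hens, for chromosomes 21 to 28 and 30 to 33 (left bar of each pair) and for chromosomes 1 to 5 (right bar), with the number of mRNAs above each bar. The bars of the adult and embryo comparison differ least relative to their height (7.60% and 7.40%, 5.71% and 5.94%), and those between E16 and E12 differ in opposite ways for rises (1.76% and 0.91%) and falls (0.85% and 1.73%).

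The rise that was largest in any comparison was that of ENSGALG00000024272, on chromosome 25, at Y5. It had 5.17 and 5.44 in the Y5 libraries, against 1.34 and 0.89 in the Y3 libraries. No other library was above 2.38, a value found at E16 (2.38, 2.16 and 1.91), so that the Y5 libraries stood apart from all 16 others. The change was 4.19 (SE 0.49, limma adjusted p = 0.00134), and with a pseudocount of 0.1 on FPKM the adjusted p was 0.0604. Leaving out a library of Y3 or Y5 gave changes between 3.96 and 4.41.

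ENSGALG00000000909, on chromosome 27, climbed from E12 to Y1 and stayed high at Y3 and Y5. It had 8.01, 8.41 and 8.69 as lowest, median and highest log2(FPKM+1) of the 7 adult libraries, against 2.43, 3.54 and 7.03 in the 8 embryonic libraries. The stage means were 2.90 (E12), 3.55 (E16), 6.04 (E20), 6.42 (D100), 8.48 (Y1), 8.04 (Y3) and 8.52 (Y5), and adults and embryos did not overlap. The change was 4.18 (SE 0.32, limma adjusted p = 1.71e-07), with values between 3.85 and 4.52 when single libraries were left out.

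ENSGALG00000001141, on chromosome 21, took the opposite course. It had 0.00, 0.64 and 1.26 as lowest, median and highest in the adult libraries, against 1.97, 4.88 and 6.42 in the embryonic libraries. The stage means were 5.98 (E12), 4.70 (E16), 2.19 (E20), 2.52 (D100), 0.07 (Y1), 0.65 (Y3) and 1.18 (Y5). Adults and embryos did not overlap, and the change was -3.65 (SE 0.20, limma adjusted p = 6.69e-09). It was listed at 0 in 2 libraries of Y1, and a level so low makes the fitted change smaller than that of the FPKM.

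ENSGALG00000021931, on chromosome 23, had the largest fitted fall and the widest spread. It had 1.97, 3.03 and 6.84 at Y1, against 7.30, 8.83 and 9.92 at D100. These libraries did not overlap, and the change was -4.73 (SE 1.29, limma adjusted p = 0.0356). At E12 its 3 libraries had 6.37, 0.69 and 2.43, so birds of the same stage differed by more than the change. Leaving out Y1 replicate 3 gave -6.18 (limma adjusted p = 0.0155). Leaving out any of the other 5 libraries gave changes between -5.42 and -3.75 that were no longer called: adjusted p was 0.0554 without D100 replicate 1, 0.0614 without D100 replicate 2, 0.0942 without D100 replicate 3, 0.143 without Y1 replicate 1 and 0.118 without Y1 replicate 2.

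**Figure D5:**
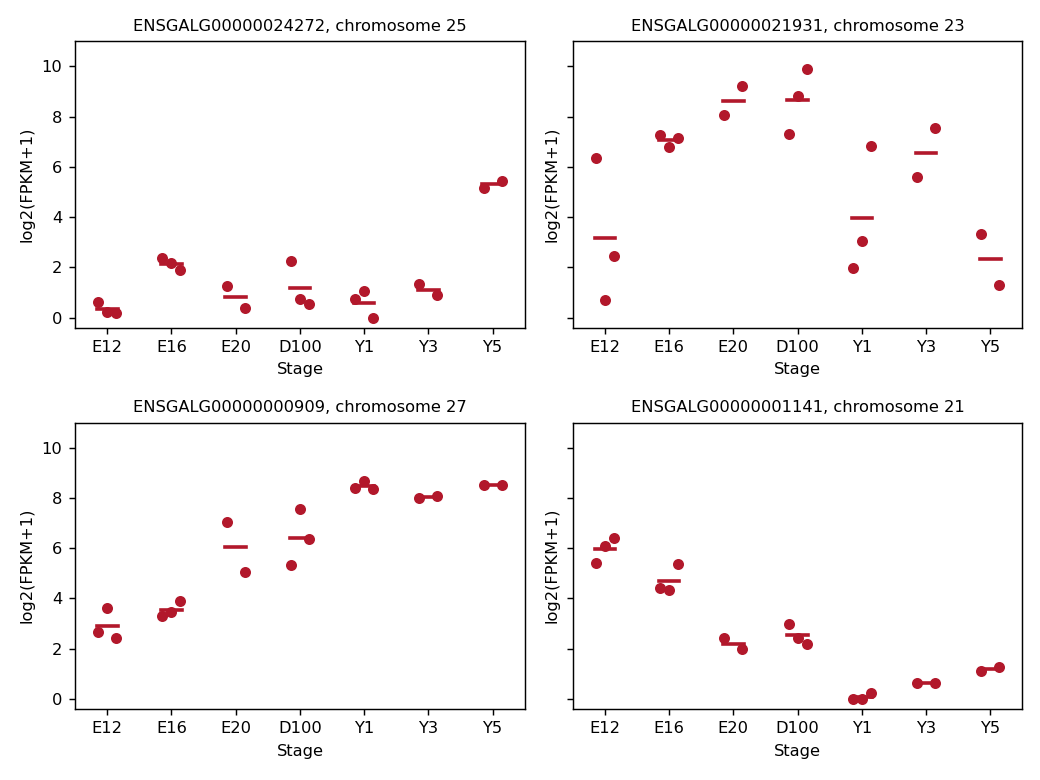
log2(FPKM+1) of 4 mRNAs in every library (points), with stage means (bars), by stage. ENSGALG00000024272 stands out at Y5 (5.17 and 5.44), ENSGALG00000000909 is above 8 in all adult libraries, ENSGALG00000001141 is below 1.3 in all of them, and ENSGALG00000021931 ranges between 0.69 and 6.37 among the libraries of E12 alone.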

How the data were processed

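Cerebrum RNA was depleted of ribosomal RNA and sequenced from both ends. By the authors' description, HISAT2 placed the reads on Gallus_gallus-5.0, transcripts were assembled with StringTie (1.3.3), Cufflinks (2.2.1) tools were used, and mRNAs were filtered on FPKM. The authors deposited log2 values of FPKM after adding 1, and compared stages with DESeq2 themselves. Because no counts were used here, stages were compared with limma (3.58.1, R 4.3.3) on these log2 values, with 7 stage means, a variance trend and 18 libraries. The read count behind each value is unknown. In the table of mRNAs, 3 value columns carry no stage and were not used. The lncRNA table gives no chromosome and was not used. Libraries of Y3 and Y5 are called replicate a and b, because their columns are numbered otherwise than the labels. The procedure was tested on simulated data, with changes larger than 2-fold planted at E16 only and not in weakly expressed mRNAs. That test did not cover changes near 2-fold, weakly expressed mRNAs or stages with 2 libraries, so it does not bear on those calls. The p-values weigh each change against the spread between libraries of the same stage, pooled over all stages in the fit of 18 libraries. With 1 bird per library, birds and library preparation cannot be told apart. For adult hens against embryos, differences among the averaged stages do not enter that spread.

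Members and lists were chosen with earlier results of these data known. Named mRNAs are the 2 largest rises and the 2 largest falls among called members whose libraries do not overlap, 1 comparison each, and others are given by chromosome. The alternatives were other corrections, a mean FPKM of at least 1, a pseudocount of 0.1, median-ratio scaling, the compared stages only, a replicate block, other limits or sets of chromosomes, and leaving out each library. Those for the offset and the named mRNAs were chosen after seeing the data. Descriptions used Python 3.11.15 with numpy 2.4.6 and pandas 2.3.3, and figures matplotlib 3.10.9.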

Additional observations from a re-analysis of the deposited data

Results flagged for a closer look

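Over the 7 adult and the 8 embryonic libraries, 52 sets of values were searched for a library with a wide gap to its neighbour. Chance alone gives about 1 such library in 20 sets, and 3 were found. E20 replicate 1 had 25 members listed at 0, against 8 to 16 in the other embryonic libraries. In the same library chromosomes 1 to 5 held 47.4% of the summed FPKM outside mitochondrial mRNAs and the most abundant mRNA, against 44.0% to 45.0% in the other embryonic libraries. In Y1 replicate 3 the mRNAs of chromosome 21 held 1.33% of it, against 1.499% to 1.62% in the other adult libraries. These sets pool stages, and the cause was not tested.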

How the results depend on the processing

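For adult hens and embryos, 219 members were called in the fit of the compared stages and with median-ratio scaling, 288 with a pseudocount of 0.1 and 95 with Bonferroni adjustment. With Bonferroni adjustment the members called were 2 (E16 vs E12), 13 (E20 vs E16), 6 (D100 vs E20), 3 (Y1 vs D100), 0 (Y3 vs Y1) and 1 (Y5 vs Y3). The rises and falls of all mRNAs were 8 and 15, 35 and 54, and 22 and 12 up to D100 vs E20. From Y1 vs D100 on they were 7 and 18, 0 and 1, and 7 and 0. With an unadjusted p the members called were 102 (E16 vs E12), 148 (D100 vs E20), 141 (Y1 vs D100), 40 (Y3 vs Y1) and 83 (Y5 vs Y3). The rises and falls of all mRNAs were 410 and 403 (E16 vs E12) and 509 and 723 (D100 vs E20). From Y1 vs D100 on they were 731 and 409, 158 and 194, and 430 and 321. In a fit of the compared stages only the members called were 56 (E16 vs E12), 26 (E20 vs E16), 0 (D100 vs E20), 6 (Y1 vs D100), 0 (Y3 vs Y1) and 1 (Y5 vs Y3), a fit with fewer samples. The rises and falls of all mRNAs were 194 and 238, 80 and 106, and 4 and 1 up to D100 vs E20. From Y1 vs D100 on they were 36 and 66, 0 and 3, and 3 and 0. A pseudocount of 0.1 gave 3 (Y5 vs Y3), and median-ratio scaling gave 4 (Y3 vs Y1).

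Leaving out each library in turn gave 7 to 93 members called for E16 vs E12, 57 to 189 for E20 vs E16, 25 to 102 for D100 vs E20, 26 to 140 for Y1 vs D100, 0 to 2 for Y3 vs Y1, 1 to 19 for Y5 vs Y3 and 203 to 243 for adult hens vs embryos. Deviations of same-numbered libraries from their stage means had correlations between -0.34 and 0.34, of both signs in each comparison. Deviations within a stage sum to 0, which ties these correlations together, so they cannot show whether the numbers carry a pairing. With the replicate block, 22 members were called for E16 vs E12, 131 for E20 vs E16, 46 for D100 vs E20 and 58 for Y1 vs D100, and it could not be fitted for comparisons with Y3 and Y5. ENSGALG00000021931 was not called with Bonferroni adjustment, a pseudocount of 0.1, the compared stages only or the replicate block.

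The difference in the share of broadly expressed mRNAs, members minus chromosomes 1 to 5, was -1.80 percentage points at an FPKM above 1, -0.053 above 0.1, -4.03 above 5 and -1.001 against chromosomes 1 to 20 and Z. The range of the offset over libraries was 0.25, 0.29 with a pseudocount of 0.1 and 0.23 against chromosomes 1 to 20 and Z. The differences in level, entropy and stage change moved by less than the spread between replicates under every alternative run. FPKM carries no depth, which limits statements on weakly expressed mRNAs. The causes of these changes were not tested.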
